A study of Mus musculus with 12 samples.

Results

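The genes described here are the aryl hydrocarbon receptor (AhR), its target oxidases and a set of genes that hepatocytes use near the central vein. They are 10 genes, Ahr, Cyp1a1, Cyp1a2, Tiparp, Cyp2e1, Axin2, Lgr5, Tbx3, Rhbg and Lect2, chosen by name from the 53465 gene IDs of the deposited count table. All 10 were found by symbol, and 9 had enough counts to be tested. The exception was Rhbg, with 16 counts over all libraries. Whole mouse liver was sequenced as 12 libraries in 4 groups of 3: knockout on high-fat diet (KO HFD), knockout on normal chow (KO chow), control on HFD and control on chow. Controls carried the floxed Pld1 gene (Pld1-Flox, genotype WT in the sample labels). The other mice, Pld1(H)-KO, are called hepatocyte-specific knockouts of Pld1, the gene of phospholipase D1, in the series text and a Pld1 knockdown in the sample labels. The sources used here name neither the driver of the deletion nor the age of the animals, and the series text gives 20 weeks for the HFD.

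AhR is a transcription factor that stays in the cytosol with HSP90 chaperones until an aromatic ligand binds it. It then pairs with ARNT in the nucleus and switches on genes such as Cyp1a1 and Cyp1a2, whose enzymes oxidise aromatic hydrocarbons and amines, and Tiparp, whose ADP-ribosyltransferase product dampens the receptor. Hepatocytes around the central vein receive Wnt signals from the nearby endothelium, and beta-catenin there sustains a pericentral programme that includes Cyp2e1, Axin2, Lgr5, Tbx3, Rhbg and Lect2 as well as the basal level of Cyp1a2. Hepatocytes at the portal end of the lobule carry other enzymes, such as those of urea synthesis.

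Promoter sequence was matched for 6 of the 10 genes in the RefSeq table for GRCm38.p6, which spans 250 bases before and 50 after each gene's start. The 4 sequences that follow are those of both Cyp1a genes, which stood far apart in level, and of Cyp2e1 and Lect2, the abundant pericentral genes. Capitals mark the AhR core motif GCGTG and the TCF/LEF motif CTTTGNT on either strand, so that CACGC and ATCAAAG are matches on the strand opposite the gene. The windows are chr9:57697363-57697662 on the plus strand for Cyp1a1, chr9:57683606-57683905 on the minus strand for Cyp1a2, chr7:140763569-140763868 on the plus strand for Cyp2e1 and chr13:56548489-56548788 on the minus strand for Lect2.
Cyp1a1: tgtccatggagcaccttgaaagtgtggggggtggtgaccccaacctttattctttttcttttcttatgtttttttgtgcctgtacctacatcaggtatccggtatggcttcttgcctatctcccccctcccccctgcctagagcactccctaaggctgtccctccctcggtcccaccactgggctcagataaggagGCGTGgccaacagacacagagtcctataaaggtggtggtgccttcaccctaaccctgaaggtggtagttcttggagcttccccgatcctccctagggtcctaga
Cyp1a2: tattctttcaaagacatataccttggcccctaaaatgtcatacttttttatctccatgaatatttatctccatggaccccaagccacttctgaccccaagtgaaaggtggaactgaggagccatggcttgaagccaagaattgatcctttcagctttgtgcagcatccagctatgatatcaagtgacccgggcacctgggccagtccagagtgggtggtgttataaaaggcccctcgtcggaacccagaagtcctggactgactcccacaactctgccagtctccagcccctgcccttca
Cyp2e1: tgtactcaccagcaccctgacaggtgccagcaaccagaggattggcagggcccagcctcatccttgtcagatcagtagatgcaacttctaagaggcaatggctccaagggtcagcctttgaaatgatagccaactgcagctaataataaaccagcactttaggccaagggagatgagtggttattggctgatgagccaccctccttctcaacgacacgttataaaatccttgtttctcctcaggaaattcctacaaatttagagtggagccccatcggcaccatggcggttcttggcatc
Lect2: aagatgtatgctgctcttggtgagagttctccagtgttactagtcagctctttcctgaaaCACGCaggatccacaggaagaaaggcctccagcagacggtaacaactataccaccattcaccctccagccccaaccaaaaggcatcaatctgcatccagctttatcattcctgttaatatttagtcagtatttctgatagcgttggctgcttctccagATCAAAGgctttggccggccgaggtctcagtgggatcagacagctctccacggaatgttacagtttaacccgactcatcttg
In these windows the AhR core began at position -54 from the start of Cyp1a1, on the gene's own strand, and at -190 of Lect2, on the opposite strand. Tiparp had a match at -170 on the opposite strand. The Cyp1a2, Cyp2e1 and Axin2 windows held neither motif. Lect2 had the TCF/LEF letters at -32. Both motifs are common: GCGTG was in 32.4% of 32851 promoter windows of this length and CTTTGNT in 18.6%. The matches of both motifs in Lect2 do not overlap, and a match is a description of the sequence only.

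The libraries held 18215008 to 22378180 counts. Pld1 was at 2.59 ± 0.575 CPM (counts scaled to the library's depth and composition) in KO HFD livers against 7.12 ± 0.623 CPM in control HFD livers, and at 4.02 ± 0.613 against 10.5 ± 1.28 CPM on chow (SD, n = 3 each, here and throughout). The biological coefficient of variation was 3.95%, and no label states whether a group's libraries are from separate animals. The p-values therefore measure how much these libraries vary, which may be technical variation. Each adjusted p is that of the quasi-likelihood test of edgeR after a Benjamini-Hochberg correction for 14778 tested genes, and a gene is called at an adjusted p under 0.05. An exact permutation test of 3 libraries against 3 cannot go below p = 0.1. In bulk liver, fewer cells of a type and less RNA per cell cannot be told apart.

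**Figure D1:**
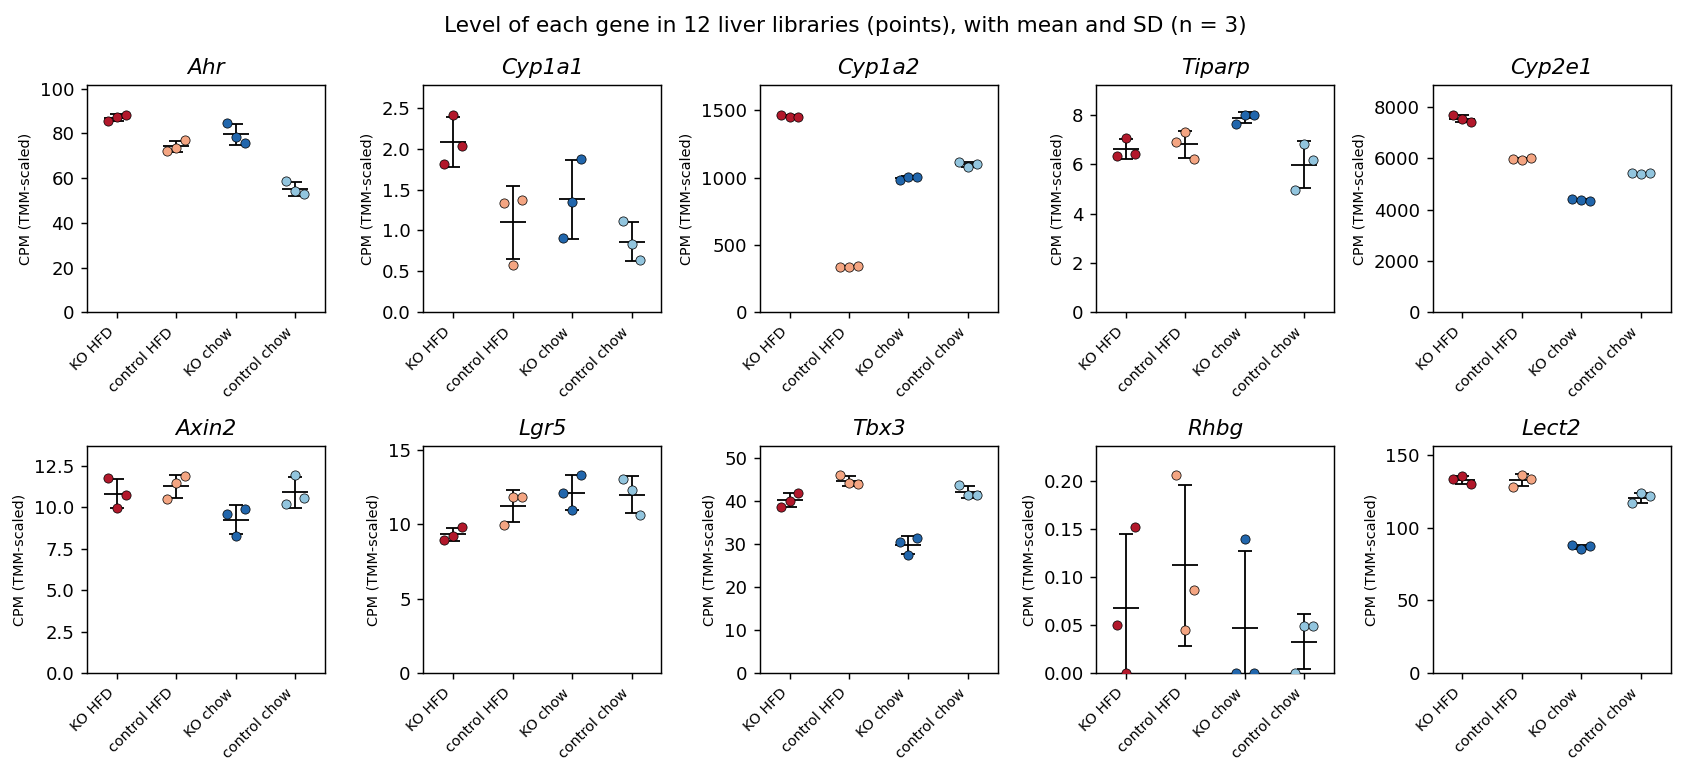
Level of each of the 10 genes in CPM (y axis, from 0, a scale of its own in each panel) in KO HFD, control HFD, KO chow and control chow livers (x axis); each point is 1 library, and the bars are mean and SD of 3. Cyp1a2 in control HFD livers, at 336 to 345 CPM, stands apart from the other 9 libraries, which are at 987 to 1469 CPM.

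Of the 9 tested genes, 4 were higher and 2 lower in KO than in control livers on HFD, where 32.4% of all tested genes were called in either direction. On chow, 2 were higher and 4 lower, against 31.2% of all tested genes. With HFD against chow, 5 were higher and 1 lower in KO livers, where 36.6% of all tested genes were called. In controls 3 were higher and 1 lower, against 37.7%. The KO difference depended on the diet for 5 of the 9, against 29.8% of all tested genes. The median log2 fold changes of the 9 were 0.00 and -0.14 for KO against control on HFD and on chow, and 0.44 and 0.14 for HFD against chow in KO and in control livers, while the medians over all tested genes lay between -0.01 and 0.00.

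The receptor was higher in KO than in control livers on both diets. Ahr (ENSMUSG00000019256) was at 85.5, 87.4 and 88.4 CPM in the KO HFD libraries, 84.9, 78.3 and 75.6 CPM in KO chow, 72.1, 73.6 and 76.9 CPM in control HFD and 58.9, 54.2 and 52.9 CPM in control chow. The control chow libraries were the lowest, below every other library, and the KO chow and control HFD ranges overlapped. KO exceeded control by 1.44-fold on chow (a log2 fold change of 0.53 ± 0.046 SE, adjusted p = 4.08e-11). On HFD it exceeded control by 1.17-fold (0.23, SE 0.044, adjusted p = 1.00e-04). The KO difference was smaller on HFD than on chow by 0.29 on the log2 scale (interaction -0.29, SE 0.064, adjusted p = 0.000557). HFD was 1.34-fold above chow in controls (0.43, SE 0.046, adjusted p = 3.31e-09). In KO livers the diet difference was 0.13 (adjusted p = 0.0200). That last call was lost without KO HFD replicate 2 or 3, without KO chow replicate 2 or 3, or with genes limited to 5 CPM, where the adjusted p was 0.0502, 0.0562, 0.0801, 0.127 and 0.051.

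Cyp1a1 (ENSMUSG00000032315), the classical AhR target, had few counts in every group. It had 36, 45 and 40 counts in KO HFD livers, 18, 29 and 37 in KO chow, 26, 13 and 32 in control HFD and 20, 17 and 13 in control chow. All KO HFD libraries lay above all control HFD libraries, and the groups overlapped in the other comparisons. KO HFD averaged 2.08 ± 0.307 CPM and control HFD 1.10 ± 0.446 CPM, a difference of 0.92 on the log2 scale (SE 0.30, adjusted p = 0.0156). Without control HFD replicate 2, the library with 13 counts, the difference was 0.61 (adjusted p = 0.126), and without KO HFD replicate 2 the adjusted p was 0.0716. On chow KO averaged 1.38 ± 0.484 and control 0.865 ± 0.237 CPM (0.68, SE 0.33, adjusted p = 0.126).

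Cyp1a2 (ENSMUSG00000032310), the constitutive liver oxidase of the AhR family of targets, had the largest differences among the 9 genes wherever control HFD livers were compared. In the KO difference on chow and the diet difference in KO livers, it was exceeded by other genes of the 9. It was at 1469, 1452 and 1453 CPM in KO HFD livers, 987, 1002 and 1008 CPM in KO chow, 339.8, 336 and 345 CPM in control HFD, and 1117, 1081 and 1104 CPM in control chow. No 2 groups overlapped: KO HFD was the highest and control HFD by far the lowest. On HFD the KO level was 4.28-fold the control level (log2 fold change 2.10, SE 0.021, adjusted p = 7.90e-37). A call of 2-fold or more in the higher direction was made for 1.18% of all tested genes in that comparison.

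On chow the KO was slightly lower, at 90.8% of the control level (-0.14, SE 0.020, adjusted p = 1.14e-06). Feeding HFD went with opposite differences in the genotypes: Cyp1a2 was 1.46-fold higher on HFD in KO livers (0.55, SE 0.020, adjusted p = 3.71e-21) and fell to 30.9% of the chow level in control livers (-1.69, SE 0.021, adjusted p = 1.21e-34). The interaction was 2.24 (SE 0.029, adjusted p = 4.09e-33). Over 22 alternatives the KO difference on HFD ranged from 2.04 to 2.11. The 8 hepatocyte markers summed to 97557 to 102103 CPM in KO HFD livers and 87940 to 88445 CPM in control HFD livers, of which Alb alone held 69646 CPM on average in KO HFD and 64801 CPM in control HFD livers. Of the 8, 6 were called higher and 2 lower in KO on HFD, where 32.4% of all tested genes were called in either direction. The part of these markers in the Cyp1a2 difference was not tested.

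Per kb of exon, Cyp1a2 was the far more abundant of both Cyp1a genes. Its mean level per kb was 969 times that of Cyp1a1 in KO HFD livers, 1002 times in KO chow, 429 times in control HFD and 1762 times in control chow. The annotated transcripts of the 2 genes share 94 stretches of 50 bases, which is 3.43% of those of Cyp1a1 and 4.79% of those of Cyp1a2. How reads that map to several genes were handled is not given in the labels or processing notes, and reads of the abundant Cyp1a2 could be among the few counts of Cyp1a1.

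Tiparp (ENSMUSG00000034640) was low in all groups and differed in 1 comparison. It was at 6.33, 7.08 and 6.44 CPM in KO HFD livers, 7.65, 8.02 and 8.02 CPM in KO chow, 6.89, 7.33 and 6.23 CPM in control HFD and 4.96, 6.82 and 6.19 CPM in control chow. The KO chow libraries were the highest of all 12, and the other 3 groups overlapped. On chow KO exceeded control by 1.32-fold (0.39, SE 0.12, adjusted p = 0.0141), a call lost without control chow replicate 1, the lowest library (adjusted p = 0.114). On HFD the difference was -0.04 (SE 0.12, adjusted p = 0.832).

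Between KO and control livers, the called differences in partner genes of the receptor were small. Other genes known to be inducible through AhR went in both directions. Of 7 partner and repressor genes, 5 were tested. Between KO and control livers, 3 of them were lower on HFD and 1 on chow, and none was higher in either, against 32.4% of all tested genes called in either direction on HFD and 31.2% on chow. The 1 on chow, Arnt, was not called without KO chow replicate 3 or control chow replicate 2. Arnt, the dimer partner, averaged 37.7 ± 3.0 CPM in KO HFD against 44.2 ± 1.44 CPM in control HFD livers (-0.23, adjusted p = 0.00107), and 43.7 ± 1.75 against 49.2 ± 1.40 CPM on chow (-0.17, adjusted p = 0.0129). It thus stood lower where Ahr stood higher. The chaperone gene Hsp90aa1 was at 225 ± 9.99 CPM in KO HFD and 251 ± 7.23 CPM in control HFD livers (-0.16, adjusted p = 0.000408). On chow Hsp90aa1 was not called, at 190 CPM in KO against 181 CPM in control livers (0.07, adjusted p = 0.150). Hsp90ab1, also called on HFD, was at 95.7% of the control level there (-0.06, adjusted p = 0.0137). The list medians for KO against control were -0.16 on HFD and 0.02 on chow. Ahrr, the AhR repressor, had 0 to 5 counts per library and was not tested.

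Of 14 other inducible genes, 12 were tested. In KO livers 2 were higher and 5 lower on HFD, and 2 higher and 1 lower on chow. That is 7 of 12 called on HFD, where 32.4% of all tested genes were, and 3 of 12 on chow, where 31.2% were. The number lower on chow was 2 without KO chow replicate 2, without control chow replicate 2 or by upper quartile scaling, and 3 with the length and GC trend removed. With HFD, 4 were higher and 3 lower in KO livers, where 36.6% of all tested genes were called, and 8 were higher and 1 lower in controls, where 37.7% were. The list medians were -0.16 on HFD and -0.07 on chow for KO against control, and 0.03 and 0.32 for HFD against chow in KO and in control livers. Cyp1b1, the extrahepatic member of the CYP1 family, had 4 to 25 counts per library and passed in no comparison. Nqo1, a quinone reductase, was at 6.64 ± 0.737 CPM in KO HFD and 11.2 ± 2.12 CPM in control HFD livers (-0.77, SE 0.12, adjusted p = 5.78e-06).

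Cyp2e1 (ENSMUSG00000025479), the pericentral oxidase of ethanol and acetone, shared the directions of Cyp1a2 between genotypes, higher in KO on HFD and lower on chow, at a smaller size. It was at 7693, 7520 and 7397 CPM in KO HFD livers, 4420, 4392 and 4333 CPM in KO chow, 5967, 5939 and 6016 CPM in control HFD, and 5432, 5368 and 5405 CPM in control chow. No 2 groups overlapped, with KO HFD the highest and KO chow the lowest. KO was 1.26-fold the control level on HFD (0.34, SE 0.014, adjusted p = 1.01e-19) and 81.1% of it on chow (-0.30, SE 0.014, adjusted p = 1.43e-18). HFD was 1.72-fold above chow in KO livers (0.78, SE 0.014, adjusted p = 3.08e-30) and 1.11-fold in controls (0.15, SE 0.014, adjusted p = 1.20e-10). The interaction was 0.64 (SE 0.019, adjusted p = 5.29e-23).

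Cyp1a2 and Cyp2e1 were the only 2 of the 9 tested genes called higher in KO on HFD and lower on chow, a pattern of 3.3% of all tested genes; these KO comparisons share no library. Per kb, the mean level of Cyp2e1 was 4.82 times that of Cyp1a2 in KO HFD livers, 4.09 times in KO chow, 16.4 times in control HFD and 4.58 times in control chow. The balance of both pericentral oxidases was thus similar in 3 groups and apart in control HFD livers, where Cyp1a2 was low and Cyp2e1 was not.

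**Figure D2:**
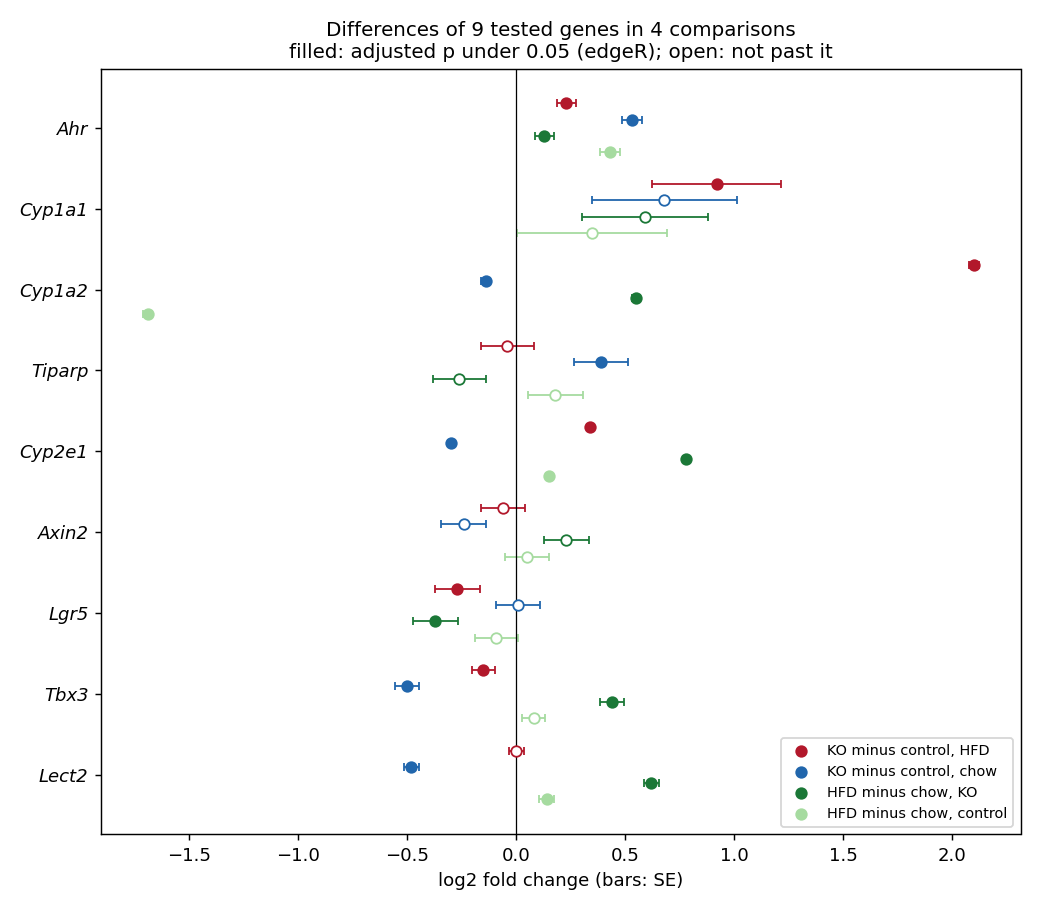
Log2 fold changes (x axis; bars are SE) of the 9 tested genes (rows) for KO minus control and HFD minus chow; filled points passed an adjusted p of 0.05 by edgeR. Cyp1a2 spans 2.10 for KO against control on HFD to -1.69 for HFD against chow in controls, while the points of the other genes but Cyp1a1 lie within -0.50 and 0.78.

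Axin2 (ENSMUSG00000000142), which encodes a scaffold of the beta-catenin destruction complex and is itself a Wnt target, passed in none of the comparisons. It was at 11.7, 9.98 and 10.8 CPM in KO HFD livers, 9.57, 8.25 and 9.90 CPM in KO chow, 10.5, 11.5 and 11.9 CPM in control HFD and 10.2, 11.9 and 10.5 CPM in control chow. KO chow was below the other groups in every library, and the other 3 groups overlapped. The KO difference on chow was -0.24 (SE 0.10, adjusted p = 0.0736) and that on HFD -0.06 (SE 0.099, adjusted p = 0.694). With each library's trend of gene levels on transcript length and GC content removed, the chow difference was -0.33 (adjusted p = 0.0118). HFD against chow in KO livers was then 0.33 (adjusted p = 0.0106), and both were past the threshold.

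Lgr5 (ENSMUSG00000020140), a receptor for R-spondins that amplify Wnt signals, was lowest in KO HFD livers. Its levels were 8.99, 9.23 and 9.84 CPM in KO HFD, 12.1, 10.95 and 13.3 CPM in KO chow, 9.98, 11.8 and 11.9 CPM in control HFD and 13.05, 12.3 and 10.6 CPM in control chow livers. The KO HFD libraries were below all others, and the remaining groups overlapped. HFD was lower than chow in KO livers by 0.37 on the log2 scale (-0.37, SE 0.10, adjusted p = 0.00474). KO against control on HFD was at the threshold (-0.27, SE 0.10, adjusted p = 0.0472) and was not called under 13 of 22 alternatives; with the replicate number as a block the adjusted p was 0.0571. Leaving out any KO HFD library, KO chow replicate 1, control HFD replicate 2 or 3, or control chow replicate 2 ended that call, and the highest adjusted p among settings that estimated the variation from these libraries was 0.167.

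Tbx3 (ENSMUSG00000018604), a T-box transcription factor, and Lect2 (ENSMUSG00000021539), a protein that hepatocytes secrete, were both low in KO chow livers. Tbx3 was at 38.6, 40.1 and 41.9 CPM in KO HFD livers, 30.4, 27.4 and 31.5 CPM in KO chow, 45.98, 44.2 and 43.9 CPM in control HFD and 43.8, 41.4 and 41.4 CPM in control chow. KO chow was below every other library, and KO HFD and control chow overlapped. KO was 70.6% of control on chow (-0.50, SE 0.056, adjusted p = 5.93e-09). On HFD it was 90.0% of control (-0.15, SE 0.053, adjusted p = 0.0256), and the KO differences on the 2 diets differed by 0.35 (SE 0.077, adjusted p = 0.000548). The call on HFD was lost by DESeq2 (adjusted p = 0.0517), without KO HFD replicate 1 or 2 (0.12 and 0.0628), without control HFD replicate 1 (0.106) and with the length and GC trend removed (-0.08, adjusted p = 0.269).

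Lect2 was at 133.5, 135 and 130.05 CPM in KO HFD livers, 87.9, 85.2 and 87.1 CPM in KO chow, 128, 136 and 134 CPM in control HFD, and 117, 124 and 121 CPM in control chow. The KO chow libraries again lay below the rest, and KO HFD and control HFD overlapped. KO was 71.9% of control on chow (-0.48, SE 0.036, adjusted p = 7.78e-13), while on HFD the difference was 0.00 (SE 0.034, adjusted p = 0.951). That value on HFD was -0.17 and called (adjusted p = 5.97e-05) once the length and GC trend was removed. HFD was 1.53-fold above chow in KO livers (0.62, SE 0.036, adjusted p = 6.46e-16) and 1.10-fold in controls (0.14, SE 0.035, adjusted p = 0.00187), and the interaction was 0.48 (SE 0.050, adjusted p = 2.05e-09).

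Rhbg (ENSMUSG00000104445), which encodes an ammonium transporter, had at most 4 counts in a library and 0 in 4 of the 12. A count of 0 allows up to 3 counts, which is 0.129 to 0.167 CPM at these depths, so no difference in Rhbg was detectable.

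Markers of other cell types also differed in KO chow livers, where Tbx3 and Lect2 were low. Between KO and control livers on chow, 31.2% of all tested genes were called in either direction, the share to set beside the marker counts that follow. The 7 Kupffer cell markers summed to 302 to 312 CPM in KO chow and 121 to 124 CPM in control chow livers, with 7 of 7 called higher. The 6 cholangiocyte markers summed to 164 to 177 CPM in KO chow and 51.8 to 58.3 CPM in control chow livers, with 2 of 5 tested called higher. Spp1, which encodes the secreted protein osteopontin and is made by other cell types too, carried that sum, at 154 ± 7.03 CPM in KO chow and 39.3 ± 3.39 CPM in control chow livers (1.97, SE 0.050, adjusted p = 1.76e-25). The other 5 cholangiocyte markers summed to 17.1 to 19.1 CPM in KO chow and 14.4 to 15.3 CPM in control chow livers. The 7 neutrophil markers summed to 41.7 to 45.5 CPM in KO chow and 14.7 to 15.5 CPM in control chow livers, with 6 of 7 higher. The 8 hepatocyte markers summed to 91247 to 93160.4 CPM in KO chow and 92959 to 93946 CPM in control chow livers, with 3 higher and 5 lower. None of these markers was at 0 throughout KO chow or control chow livers; throughout control HFD livers Mpo of the neutrophil list was. In HFD livers, where KO and control differed most in Cyp1a2, the Kupffer cell sum was 183 to 193 CPM in KO against 127 to 131 CPM in control livers, and the neutrophil sum 5.22 to 5.78 against 0.764 to 1.07 CPM. The cholangiocyte sum was 32.5 to 33.9 CPM in KO HFD against 48.5 to 51.1 CPM in control HFD livers. Of that sum, Spp1 made up 23.3 ± 1.05 CPM in KO HFD and 36.5 ± 1.58 CPM in control HFD livers (-0.65, SE 0.061, adjusted p = 1.77e-10), and the other 5 markers 9.44 to 11.1 CPM in KO HFD and 12.1 to 13.5 CPM in control HFD livers. The sum of 9 stellate cell markers was 231 to 248 CPM in KO HFD and 264 to 277 CPM in control HFD livers. The sum of 7 erythroid markers was 147 to 163 CPM in KO HFD, 223 to 231 in KO chow, 114 to 120.1 in control HFD and 185 to 194 in control chow livers. Alas2, the largest part, was lower in KO, at 76.5 against 88.7 CPM on HFD and 91.6 against 117 CPM on chow. Hbb-bs was higher, at 39.1 against 14.4 CPM and 73.8 against 38.6 CPM. Of the 6 tested, 5 were called higher and 1 lower on HFD, where 32.4% of all tested genes were called. On chow 4 were called higher and 1 lower, against 31.2%. The stellate cell sum was 221 to 230.1 CPM in KO chow and 172 to 183 CPM in control chow livers. Endothelial markers, of the cells that supply Wnt ligands, summed to 219.6 to 225 CPM in KO HFD, 209 to 215 in KO chow, 219 to 223 in control HFD and 172 to 182 in control chow livers. Marker sums thus differed by diet as well as by genotype, and their part in the values of the genes described here was not tested.

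The Wnt ligands made around the central vein were scarce in whole liver. Wnt2 averaged 2.09 ± 0.0756 CPM in KO HFD, 1.36 ± 0.303 in KO chow, 2.62 ± 0.634 in control HFD and 1.06 ± 0.297 in control chow livers. It was 2.48-fold higher with HFD in controls (1.33, SE 0.25, adjusted p = 6.24e-05) and was not called in KO livers (0.62, SE 0.25, adjusted p = 0.0515) or between genotypes. Wnt9b was lower in KO than in control livers on HFD, at 0.447 ± 0.168 against 0.996 ± 0.125 CPM (-1.15, SE 0.37, adjusted p = 0.0151). Rspo3, an R-spondin and so a ligand of Lgr5, was at 3.43 ± 0.573 CPM in KO HFD and 4.54 ± 0.823 CPM in control HFD livers and was not called (adjusted p = 0.0601).

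In all, 1 of 13 Wnt ligands, receptors and transducers was higher and 4 lower in KO livers on HFD, and 2 were higher and 1 lower on chow. These are 5 of 13 and 3 of 13 called, beside 32.4% and 31.2% of all tested genes. The number higher on chow was 0 with the length and GC trend removed, without KO chow replicate 3 or without control chow replicate 2, and 1 without KO chow replicate 2 or by upper quartile scaling. The number lower on chow was 2 with that trend removed or without control HFD replicate 1. Of 7 tested feedback targets of beta-catenin, 1 was higher and 3 lower in KO livers on HFD, and 1 was lower on chow, beside the same shares of all tested genes. The number lower on chow was 4 with the trend removed, and 0 without control chow replicate 3, by DESeq2, with no filter on low counts or with only the groups compared in the fit. Notum, a secreted Wnt inhibitor, was the higher one, at 29.2 ± 2.98 CPM in KO HFD and 22.5 ± 0.576 CPM in control HFD livers (0.38, adjusted p = 3.58e-05). Tnfrsf19, a TNF receptor family member, was lower in KO on both diets (-0.56 on HFD and -0.38 on chow, adjusted p = 0.00028 and 0.0307).

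Other hepatocyte genes with a pericentral place moved in both directions. Of 19, in KO livers 12 were higher and 6 lower on HFD, and 4 were higher and 12 lower on chow; the list medians were 0.23 and -0.33. Of all tested genes, 32.4% were called in either direction on HFD and 31.2% on chow. The pattern of Cyp1a2 and Cyp2e1, higher on HFD and lower on chow, was seen for 8 of the 19, against 3.3% of all tested genes, and 2 had the opposite one, against 2.17%. Cyp2c54, a P450 enzyme, showed the largest differences: 173 ± 6.50 CPM in KO HFD against 69.3 ± 2.10 CPM in control HFD livers (1.32, SE 0.034, adjusted p = 3.66e-25), and 176 ± 1.96 CPM in KO chow against 416 ± 8.64 CPM in control chow livers (-1.24, SE 0.031, adjusted p = 1.56e-25). Cyp2c29, Cyp2c37, Cyp2c50 and Cyp2c54 are all among the 8. These Cyp2c genes are paralogs of the same family, and the sequence they share was not measured here. Their counts are therefore uncertain, and they may not stand for separate observations.

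Por, the reductase that passes electrons to microsomal P450 enzymes, was higher in KO on both diets, at 405 ± 11.4 against 205 ± 9.22 CPM on HFD (0.98, SE 0.032, adjusted p = 2.05e-22) and 299 ± 8.69 against 205 ± 3.45 CPM on chow (0.55, SE 0.032, adjusted p = 1.56e-15). Glul, the glutamine synthetase of the innermost pericentral hepatocytes, went the other way from Cyp1a2. It averaged 1351 ± 18.2 CPM in KO HFD against 1497 ± 6.50 CPM in control HFD livers (-0.15, SE 0.019, adjusted p = 2.08e-07) and 1041 ± 7.85 CPM in KO chow against 878 ± 17.8 CPM in control chow livers (0.25, SE 0.020, adjusted p = 3.64e-12).

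Periportal genes had similar counts. Of 18, in KO livers 11 were higher and 5 lower on HFD, and 6 were higher and 11 lower on chow. Beside these counts, 32.4% of all tested genes were called in either direction on HFD and 31.2% on chow. Higher on HFD and lower on chow were 6 of the 18, against 3.3% of all tested genes. The opposite pattern was seen for 1, against 2.17%. Cps1, the mitochondrial entry enzyme of urea synthesis, was at 2817 ± 27.4 CPM in KO HFD and 1867 ± 29.6 CPM in control HFD livers (0.59, SE 0.017, adjusted p = 2.21e-24). The pattern of Cyp1a2 and Cyp2e1 was therefore present among genes of both ends of the lobule, and no difference between the zonal lists was tested.

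**Figure D3:**
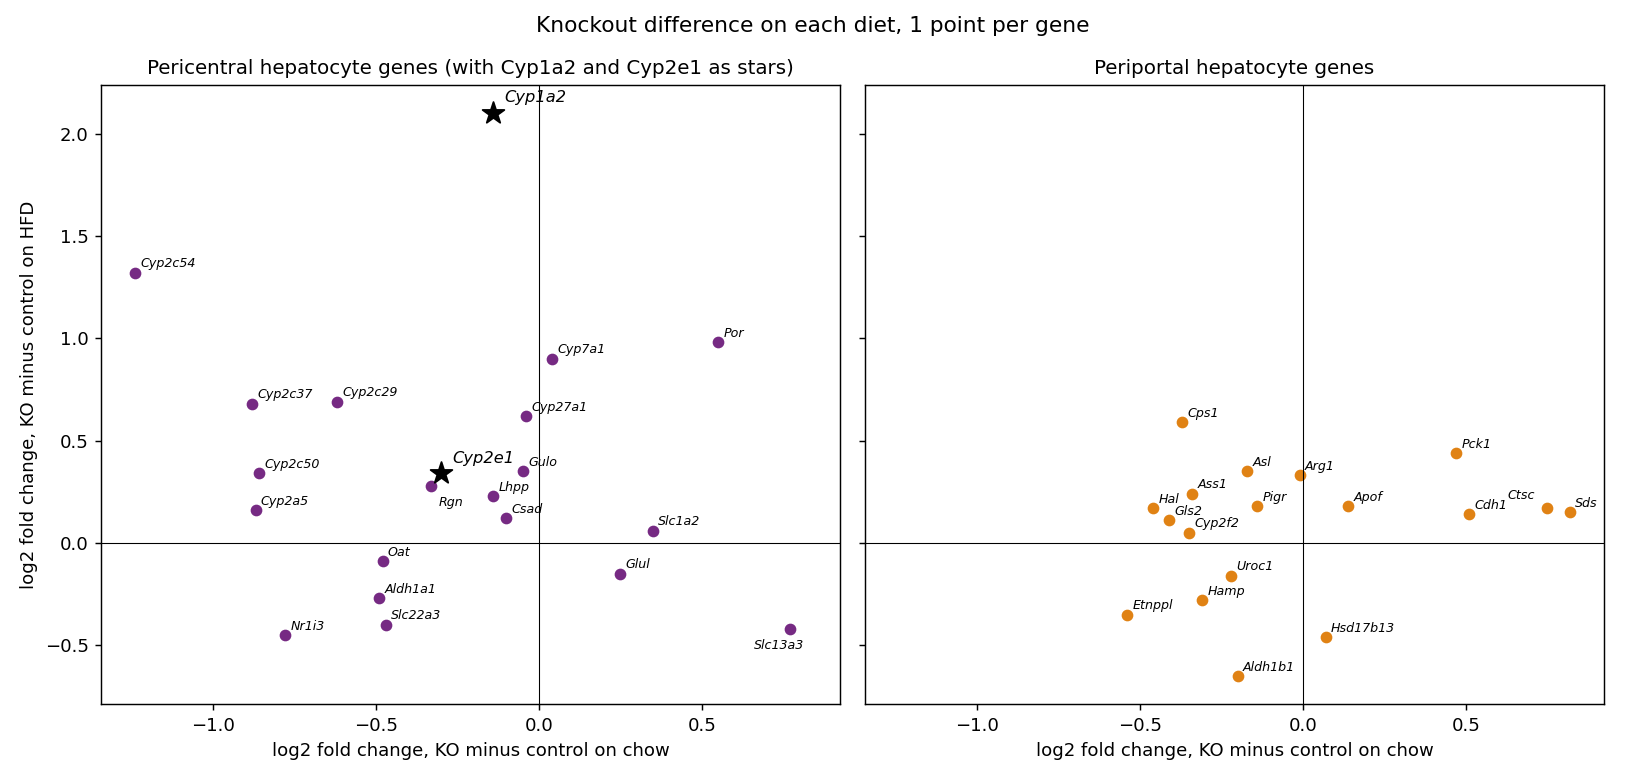
Log2 fold change of KO minus control on chow (x axis) and on HFD (y axis) for 19 pericentral genes (left; stars are Cyp1a2 and Cyp2e1) and 18 periportal genes (right), 1 point per gene. The upper left part of each panel holds genes higher in KO on HFD and lower on chow, and Cyp1a2, at 2.10 on HFD and -0.14 on chow, is the highest point.

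The genes nearest to Cyp1a2 in pattern over the 4 groups were Mup19, Cyp2c40, Mup12, Slco1a1 and Igfbp2. Likeness is the root mean square difference of the 4 log2 group means after each gene is centred on its own mean, over 9089 genes with at least 5 CPM, and it was 0.15 for Mup19 and 0.31 for Igfbp2. Mup19 averaged 513 CPM in KO HFD, 424 in KO chow, 153 in control HFD and 502 in control chow livers; the Mup genes are near-identical, so their counts are uncertain. All 5 had their lowest mean in control HFD livers, which follows largely from choosing them by likeness to Cyp1a2. Mup19 and Cyp2c40 were highest in KO HFD livers, as Cyp1a2 was. Mup12, Slco1a1 and Igfbp2 were highest in control chow livers, at 181, 261 and 485 CPM, against 163, 213 and 417 CPM in KO HFD livers. For Cyp2e1 the nearest were BC024139, Trib1, Dpys, Fgf1 and Lhpp, at 0.022 to 0.075. Dpys averaged 552 CPM in KO HFD, 353 in KO chow, 427 in control HFD and 390.4 in control chow livers, the order of the Cyp2e1 means. For Axin2, whose group means hardly differed, they were Pus10, Limd1, Ccnh, Tarsl2 and Atp5a1, at 0.0022 to 0.013. These are descriptions over 4 group means.

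**Figure D4:**
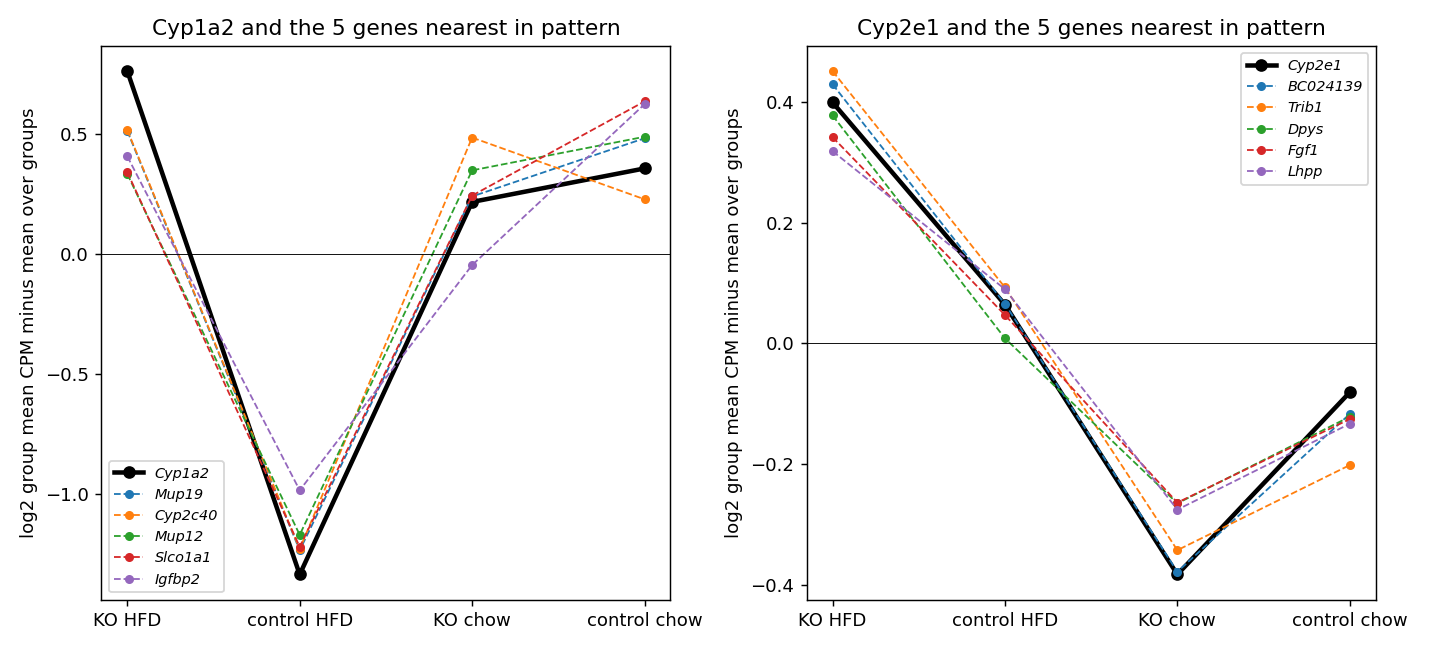
Log2 group mean CPM minus each gene's mean over the 4 groups (y axis) in KO HFD, control HFD, KO chow and control chow livers (x axis) for Cyp1a2 (left) and Cyp2e1 (right) as thick lines, each with its 5 nearest genes as dashed lines; lines only join the groups of 1 gene. All 6 lines on the left have their low point in control HFD livers, which follows largely from choosing the 5 genes by likeness to Cyp1a2.

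The spread between libraries sets how firmly these calls stand. Of the 27 calls made for the 9 genes over 5 comparisons, 22 held in every alternative that estimated the spread from these libraries. With the biological coefficient of variation fixed at 20%, 4 of the 27 remained: Cyp1a2 for KO against control on HFD (adjusted p = 1.4e-14), for HFD against chow in controls (2.71e-10) and for the interaction (2.32e-08), and Cyp2e1 for HFD against chow in KO livers (0.0172).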

How the data were processed

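Total RNA of mouse liver was made into Illumina libraries, per the labels' protocols. The authors deposited raw counts per Ensembl gene for 12 libraries, read as counts from the whole numbers and unequal totals of the deposited table. Bowtie 0.12.2 and the build mm8 are listed per the submitters' processing notes. How reads were counted, with which strand setting and with what treatment of several matches, is not given in these sources. Reads of paralogs and overlapping genes may thus be shared or split. GENCODE M21 paired 53360 of 53465 IDs with symbols and gave transcript lengths; 26261 IDs had 0 counts throughout. RefSeq promoters are of GRCm38.p6, and no coordinates were moved between builds.

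The labels' genotype and diet gave the 4 groups. The totals, 18215008 to 22378180 counts, set the precision of low genes, and limits from a count of 0 cover counting error only. By chi-square, the 12 pairs of libraries within groups differed by 1.59 to 2.34 times sampling noise. Each library was counted as 1 replicate, though this excess cannot show that the libraries are from separate animals. edgeR 4.0.16 (filterByExpr, TMM, glmQLFit, glmQLFTest; R 4.3.3) was fitted once to the 4 groups without covariates on 14778 genes, with contrasts for KO against control (on HFD and on chow), for HFD against chow (in KO and in control livers) and for the interaction (KO difference on HFD minus that on chow). The SE is the log2 fold change over the square root of F. CPM are counts over TMM-scaled totals. The scripts were tested on simulated data. Alternatives were other filters and scalings, DESeq2 1.42.0, limma-voom (limma 3.58.1), pairwise fits, a replicate block, a variation fixed at 20% and leaving out each library. A further alternative removed, in each library, the trend of log2 CPM relative to each gene's mean with transcript length and GC.

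The 10 genes and 13 other gene lists were chosen with earlier results of these data known. From each list, genes were named by a rule: in each comparison up to 4 with the largest fold among called genes whose higher group averaged at least 1 CPM, plus Wnt ligands, Glul, Ahrr and Cyp1b1 in any case, of which some are given here; some named items are not reported. Genes like a member in pattern were the 5 with the smallest difference, with 0.5 CPM added before the log and unnamed gene models left out.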

Additional observations from a re-analysis of the deposited data

Results flagged for a closer look

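For the results below the KO difference on HFD and that on chow differed by a test of the difference itself, the interaction of edgeR's model (adjusted p under 0.05), which was called for 29.8% of all tested genes. Each value is the log2 fold change of KO against control on HFD minus that on chow. Among the 9 tested genes it was 2.24 for Cyp1a2, 0.64 for Cyp2e1, 0.48 for Lect2, 0.35 for Tbx3 and -0.29 for Ahr.

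Among genes of the AhR complex it was -0.23 for Hsp90aa1 and -0.09 for Hsp90ab1. Among inducible genes it was -0.62 for Nqo1, 0.42 for Slc46a3, -0.27 for Nfe2l2 and -0.25 for Xdh. Among Wnt genes it was -0.38 for Gsk3b, -0.16 for Ctnnb1, 0.48 for Notum and -0.45 for Znrf3.

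Among other pericentral genes it was 2.56 for Cyp2c54, 1.56 for Cyp2c37, 1.31 for Cyp2c29, 1.20 for Cyp2c50, 1.02 for Cyp2a5, 0.86 for Cyp7a1, 0.43 for Por and 0.32 for Nr1i3, while it was -0.39 for Glul and -1.19 for Slc13a3. Among periportal genes it was 0.97 for Cps1 and 0.63 for Hal, against -0.67 for Sds, -0.44 for Aldh1b1 and -0.37 for Cdh1. With 3 libraries in each group, single libraries were not tested as outliers.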

How the results depend on the processing

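With the biological coefficient of variation fixed at 20%, the genes called were 534 for KO against control on HFD, 931 on chow, 1102 for HFD against chow in KO livers, 1194 in controls and 510 for the interaction, against 4784, 4604, 5412, 5571 and 4411 with the estimated spread. The other 104 counts of called genes stayed within 1.5 times; leaving out single libraries gave 4139 to 4828, 3977 to 4676, 4756 to 5462, 4907 to 5657 and 3934 to 4184. Counts within the gene lists moved more: 1202 stayed within 1.5 times and 106 did not, of which 53 were with the variation fixed at 20%, 36 leaving out a library, 10 with the trend on length and GC content removed and 7 under other settings. With the variation fixed at 20%, KO against control called 3 pericentral genes higher and 0 lower on HFD (12 and 6 with the estimated spread) and 1 higher and 5 lower on chow (4 and 12), and 0 Wnt ligands, receptors and transducers on both diets. With that trend removed, the interaction was called higher for 2639 and lower for 1667 genes, against 2241 and 2170. Replicate numbers did not pair the libraries: deviations of same-numbered libraries correlated at -0.11 to 0.11 over 18 pairs, and 4 of 12 libraries were closest to their own number. With the replicate number as a block, 4741, 4544, 5357, 5515 and 4331 genes were called, in the order above, and of the calls of the 9 genes the block changed that of Lgr5 for KO against control on HFD. Of the fold changes of the 9 genes, 908 kept direction and call, 48 lost the call, 6 gained it and 14 changed sign; the cause was not tested. The sign changes were at values near 0 except where the trend was removed for Lect2 in KO against control on HFD (-0.17). That Lect2 value was also -0.006 by upper quartile scaling, -0.009 with genes limited to 5 CPM, and -0.017 to 0.023 leaving out single libraries. On HFD, KO against control for Tiparp was 0.027 with the trend removed and -0.104 to 0.015 leaving out libraries, and for Axin2 0.001 with the trend removed. On chow, KO against control for Lgr5 was -0.009 with the trend removed and -0.067 to 0.084 leaving out libraries. HFD against chow in controls was -0.001 for Axin2 with the trend removed, and the Cyp1a1 interaction was -0.07 to 0.517 leaving out libraries. Calls gained were Axin2 on chow and by diet in KO livers with the trend removed, Cyp1a1 by diet in KO livers without KO chow replicate 3 (0.87, adjusted p = 0.0397), and the Tiparp interaction with genes limited to 5 CPM (adjusted p = 0.0388), without control HFD replicate 3 (0.0431) and without control chow replicate 2 (0.0277), in a range of 0.0277 to 0.895. Counts of Cyp1a1, Cyp1b1, Wnt9b and Rhbg limit what their differences can show.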
